A study of Mus musculus with 8 samples.

Results

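The genes described here are 44 genes of vesicle transport between the endoplasmic reticulum (ER) and the Golgi, of 27179 genes in the count table of mouse bone marrow plasma cells. They were taken by name and fall into 5 role classes: 13 genes of the COPII coat, 11 cargo receptors, 9 genes of the COPI coat and the ARF cycle, 3 retrieval receptors, and 8 tethers, SNAREs and Golgi entry factors. All 44 were matched by the symbols in the deposited files, and all 44 passed the filter on low counts, which kept 15073 genes. Antibody, like other secreted protein, leaves the ER in vesicles formed by the COPII coat, often held by cargo receptors, and reaches the Golgi through tethering and SNARE-driven fusion. Vesicles coated with COPI, whose assembly ARF GTPases start, bring escaped ER residents, empty receptors and SNAREs back. Plasma cells secrete antibody at a high rate, and in mice the transcription factor XBP1 is known to widen their secretory pathway and Blimp1 to maintain their secretory state.

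RNA was sequenced from plasma cells of C57BL/6 mouse bone marrow that were sorted as positive for a Blimp1-GFP reporter and for CD138, a surface proteoglycan of plasma cells. The groups were 2 libraries with the genotype Blimp1-/- (Blimp1KO) and 2 wild-type (WT) libraries in batch 1, and 2 libraries with the genotype Xbp1-/- (Xbp1KO) and 2 WT libraries in batch 2. The sort on the reporter is common to all 4 groups, so cells without it were not measured in any of them. The deleted exons, the way of deletion and the age of the mice are not given in the sources used here. The replicates are called biological by the submitters. Comparisons were made within a batch, with 2 knockout libraries against 2 WT libraries.

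Total counts ran from 44.01 M to 145.4 M per library (M for 1e6). Immunoglobulin genes took 55.4% and 58.4% of counts in Blimp1KO, against 75.7% and 75.6% in WT of batch 1. They took 30.0% and 25.2% in Xbp1KO, against 69.7% and 64.8% in WT of batch 2. Levels below are CPM, counts per 1e6 of library sizes scaled by the trimmed mean of M-values (TMM). Prdm1, which encodes Blimp1, was at 243 and 176 CPM in Blimp1KO, against 301 and 306 CPM in WT of batch 1, with an adjusted p of 0.402 by edgeR's quasi-likelihood test. Xbp1 was at 1302 and 1105 CPM in Xbp1KO, against 2129 and 2202 CPM in WT of batch 2, with an adjusted p of 0.0939 by the same test. Gene counts can hold reads from exons that a knockout keeps, so these levels do not check the genotype labels. The sort marker Sdc1, which encodes CD138, was present in all 8 libraries, at 309 CPM or more. In batch 1 the deposited FPKM files match the count columns of the other replicate number of the same group, with median differences of 0.01 to 0.04 on the log2 scale against 0.14 to 0.40 for the same number. The groups are not touched by this, and replicate numbers here follow the count table.

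Transport genes of every role class fell in Xbp1KO, with the lowest estimates for the coat gene Sec24d, the retrieval receptor Kdelr3, the GTPase activator Arfgap3, the cargo receptor Ergic3 and the SNARE Bet1. By the quasi-likelihood test of edgeR, with Benjamini-Hochberg adjusted p below 0.05 over all genes tested, 18 of the 44 genes fell in Xbp1KO, 0 rose and 26 did not pass. Over all 15073 genes, 7.7% were called in Xbp1KO, 5.06% of them lower and 2.63% higher as shares of the genes tested. The median log2 fold change was -0.73 over the 44 genes and 0.08 over all genes, and 41 of the 44 estimates were below 0. In Blimp1KO, 0 of the 44 genes passed, while 0.862% of all genes did, 0.285% lower and 0.577% higher. At an unadjusted p below 0.05 there were 12 of the 44 in Blimp1KO, each of them lower, which is 27.3% of them, against 13.9% of all genes in either direction and 6.80% lower. DESeq2 called 4 of the 44, Sec24a, Sec24d, Lman1 and Ergic1, all lower, and 6.43% of all genes it tested. The median in Blimp1KO was -0.33 over the 44 genes and -0.01 over all genes, with 39 estimates below 0. The difference between the effects, Xbp1KO minus Blimp1KO, passed for 3 of the 44 genes, Mcfd2, Kdelr3 and Bet1, all lower, where 1.68% of all genes passed, 1.17% lower and 0.511% higher.

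These directions hold relative to the other genes, and for many of the 44 genes they flip when the whole library, immunoglobulin counts included, is the measure. With total counts as library sizes the median of all genes was 0.78 in Blimp1KO and 1.24 in Xbp1KO, and the test called 16 of the 44 genes higher and 0 lower in Blimp1KO, and 19 higher and 5 lower in Xbp1KO, where 11 estimates stayed below 0. That scaling moves all genes, and it called 39.1% of all genes in Blimp1KO and 62.8% in Xbp1KO. The median of the 44 genes less that of all genes was then -0.31 in Blimp1KO and -0.81 in Xbp1KO, against -0.32 and -0.81 with TMM. As shares of counts outside immunoglobulin genes, the 44 genes together held 1.14% and 1.15% in Blimp1KO, against 1.48% and 1.54% in WT of batch 1. They held 0.932% and 0.861% in Xbp1KO and 1.51% and 1.41% in WT of batch 2. As shares of all counts they held 0.509% and 0.480% in Blimp1KO, against 0.360% and 0.375% in WT of batch 1, and 0.653% and 0.644% in Xbp1KO and 0.459% and 0.496% in WT of batch 2. In bulk RNA a lower level per cell and fewer cells that express a gene cannot be told apart.

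**Figure D1:**
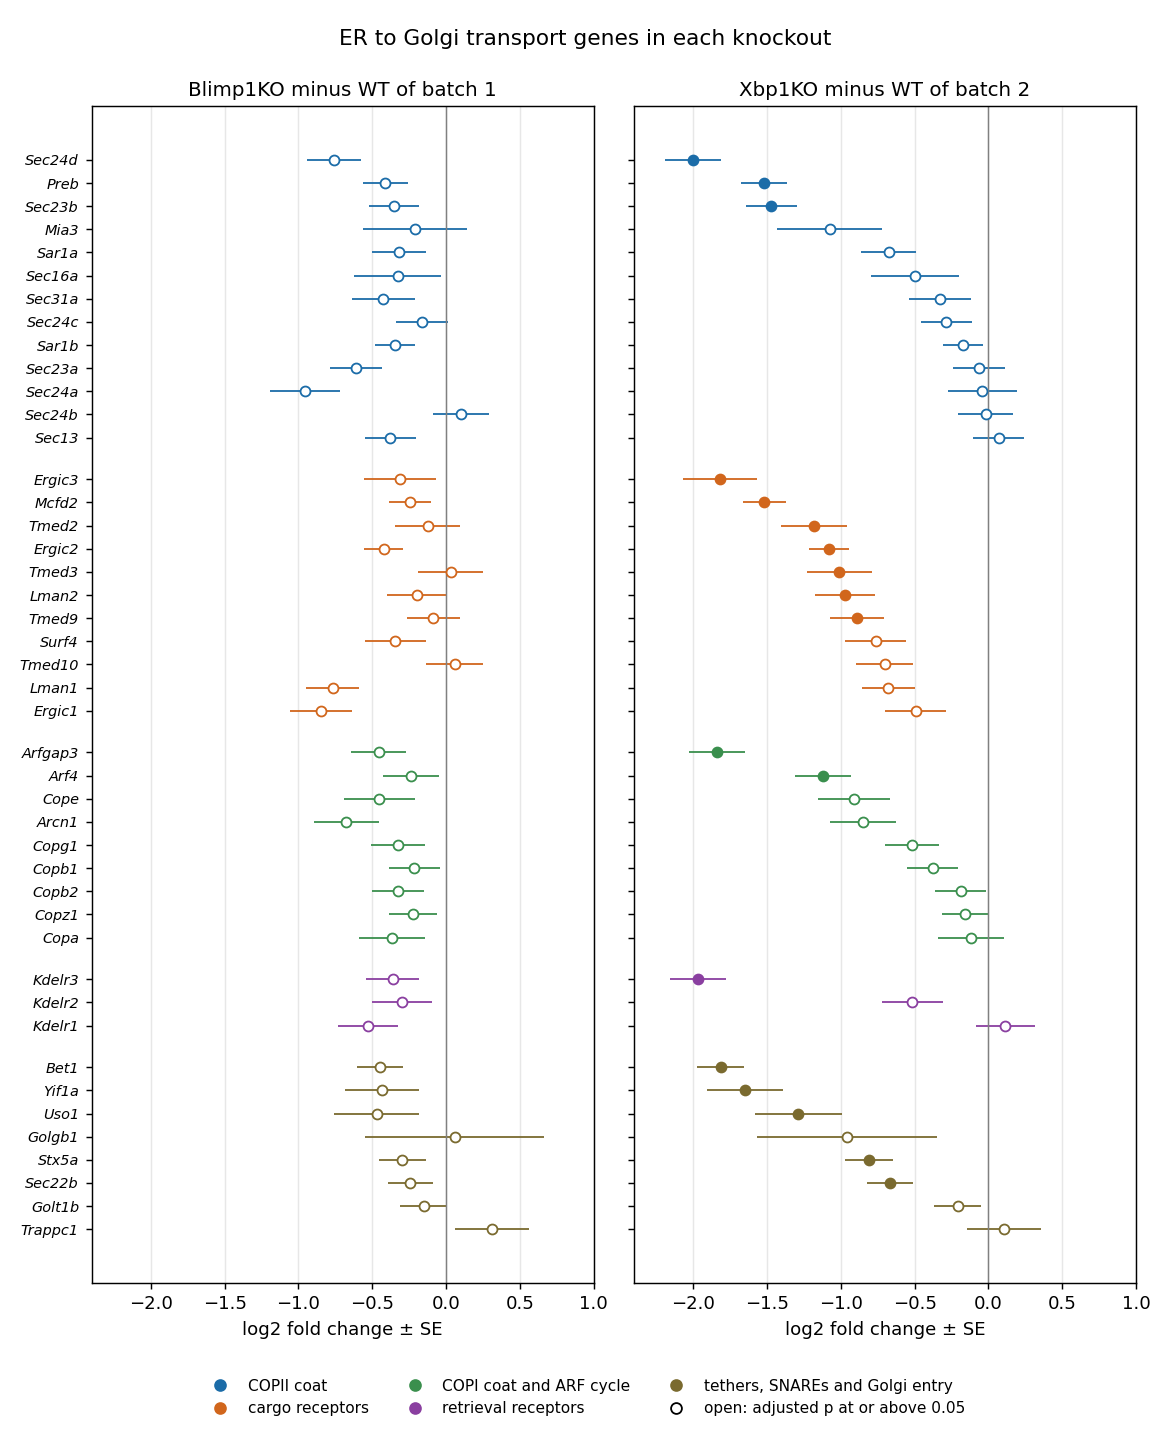
Log2 fold changes (x axis, with SE) of the 44 transport genes (y axis, grouped by role class) in Blimp1KO against WT of batch 1 (left) and Xbp1KO against WT of batch 2 (right), from the TMM-scaled fit. Filled points passed at an adjusted p below 0.05: 0 in Blimp1KO and 18 in Xbp1KO, all below 0 on this scale, though with total counts as library sizes 19 genes were called higher and 5 lower in Xbp1KO.

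In WT plasma cells these genes were among the more abundant of the deposited FPKM values, which are per length. Over the 44 genes the median level was 97.3 FPKM in WT of batch 1 and 88.4 FPKM in WT of batch 2, which placed the median gene above 94.3% and 95.0% of the genes in those files. The highest means in WT of batch 2 were those of the ARF GTPase Arf4, at 331 ± 7.35 FPKM (SD, n = 2), and of the COPI subunit Cope, at 302 ± 28.6 FPKM, a gap close to the SD of Cope. Surf4, a receptor for soluble cargo, followed at 260 FPKM in both libraries, a tie of a kind that recurs in these scaled files. The lowest were the COPII subunit Sec24b at 16.3 ± 0.0622 FPKM and the retrieval receptor Kdelr3 at 18.9 ± 0.334 FPKM. The WT batches did not have the same levels, with Cope at 515 ± 5.99 FPKM and the Golgi tether Golgb1 at 11.9 ± 2.68 FPKM in WT of batch 1, and Golgb1 at 33.2 ± 1.65 FPKM in WT of batch 2.

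In the COPII coat 3 of 13 genes fell in Xbp1KO. Sec24d, one of 4 Sec24 paralogs that bind cargo in the inner coat (Entrez 69608, at 123264801 to 123365641 on chromosome 3 of GRCm38.p6), had 44.3 and 36.3 CPM in Xbp1KO libraries, against 167 and 156 CPM in WT of batch 2. Both knockout libraries lay below both WT libraries, and the log2 fold change was -2.003 ± 0.19 (SE, adjusted p = 0.00316). Here and below, whether groups overlap only describes the values. The share of all genes without overlap was not counted, and full separation of 2 libraries from 2 has an exact permutation p of 0.333. Preb, which encodes the exchange factor Sec12 that loads Sar1 with GTP and so starts the coat, had 34.4 and 33.7 CPM in Xbp1KO and 100.2 and 94.8 CPM in WT of batch 2. The groups did not overlap, and its log2 fold change was -1.52 ± 0.16 (adjusted p = 0.00382). Sec23b, a paralog of the Sar1 GTPase activator in the inner coat, had 40.1 and 31.4 CPM in Xbp1KO, against 101 and 96.5 CPM in WT of batch 2. Here too every Xbp1KO value was below every WT value, with a log2 fold change of -1.47 ± 0.17 (adjusted p = 0.00552).

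The other 10 COPII genes did not pass in Xbp1KO. The Sar1a GTPase had 108 and 91.0 CPM in Xbp1KO and 168 and 149 CPM in WT of batch 2, without overlap, at -0.68 ± 0.18 (adjusted p = 0.0744). Mia3, which encodes the exit site protein TANGO1 that loads bulky cargo such as collagen, had 102 and 78.4 CPM in Xbp1KO and 200 and 179 CPM in WT of batch 2, at -1.07 ± 0.36 (adjusted p = 0.123). The paralogs of the genes that fell were close to WT: Sec23a had 43.2 and 40.3 CPM in Xbp1KO, against 41.7 and 45.5 CPM in WT of batch 2, values that overlap. Sec24a had 132 and 109 CPM in Xbp1KO and 112 and 137 CPM in WT of batch 2, which also overlap. Sec24b, Sec24c, Sar1b, the outer coat genes Sec13 and Sec31a and the exit site scaffold gene Sec16a had adjusted p from 0.375 to 0.969, with estimates from -0.50 to 0.07.

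Promoter sequences are shown for Sec24d, Kdelr3, Stx5a and Sec23a because each holds the 8 bases TGACGTGG, the XBP1 binding element UPRE, and Sec24d, Kdelr3 and Stx5a fell in Xbp1KO while Sec23a did not pass. They run from 250 bases before to 50 bases after the RefSeq start in GRCm38.p6, are written 5′ to 3′ on the gene's strand, and have the element, read on either strand, in capitals.
Sec24d, chr3:123267246-123267545, plus strand: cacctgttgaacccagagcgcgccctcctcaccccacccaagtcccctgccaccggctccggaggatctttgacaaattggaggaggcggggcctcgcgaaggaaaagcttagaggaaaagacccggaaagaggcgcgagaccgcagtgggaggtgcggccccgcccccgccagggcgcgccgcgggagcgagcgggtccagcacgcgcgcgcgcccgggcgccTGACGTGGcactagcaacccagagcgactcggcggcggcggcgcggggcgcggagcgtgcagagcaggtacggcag
Kdelr3, chr15:79516158-79516457, plus strand: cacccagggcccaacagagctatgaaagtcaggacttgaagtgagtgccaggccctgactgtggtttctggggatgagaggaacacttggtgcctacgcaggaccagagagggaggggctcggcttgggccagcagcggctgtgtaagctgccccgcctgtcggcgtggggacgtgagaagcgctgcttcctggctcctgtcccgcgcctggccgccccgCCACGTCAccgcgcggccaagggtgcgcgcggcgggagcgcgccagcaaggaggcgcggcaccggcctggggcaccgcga
Stx5a, chr19:8741174-8741473, plus strand: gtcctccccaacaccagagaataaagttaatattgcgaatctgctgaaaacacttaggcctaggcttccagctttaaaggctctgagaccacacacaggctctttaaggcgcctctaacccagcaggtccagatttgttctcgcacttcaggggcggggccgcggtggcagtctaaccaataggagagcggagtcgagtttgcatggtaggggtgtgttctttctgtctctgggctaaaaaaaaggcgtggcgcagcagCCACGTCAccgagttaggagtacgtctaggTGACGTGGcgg
Sec23a, chr12:59011968-59012267, minus strand: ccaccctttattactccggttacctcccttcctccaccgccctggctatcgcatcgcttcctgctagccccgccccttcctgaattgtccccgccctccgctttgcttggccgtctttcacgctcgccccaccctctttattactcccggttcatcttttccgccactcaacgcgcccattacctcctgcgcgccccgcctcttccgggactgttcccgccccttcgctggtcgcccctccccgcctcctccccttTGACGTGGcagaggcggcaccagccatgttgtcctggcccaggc

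The element lies 26 to 19 bases before the start in Sec24d, 30 to 23 bases before it in Kdelr3, 7 to 14 bases after it in Sec23a, and at 10 to 17 and 40 to 47 bases after it in Stx5a. RefSeq promoters were at hand for 38 of the 44 genes, and 6 of them, 15.8%, held TGACGTGG on either strand, the other two being the COPI genes Copb1 and Copb2. Of 11079 tested genes with a promoter 0.993% held it, and of all 32851 promoters 0.676%. Of the genes with a promoter, it occurred in 3 of the 17 that fell in Xbp1KO and in 3 of the 21 others. Stx5a had a further RefSeq promoter, chr19:8741553-8741852, which is not shown and did not hold the element. The variant TGACGTGA and the longer elements ERSE and ERSE-II, which join a CCAAT box to the core CCACG, were found in 0 of the 38. The core CCACG, which each match of TGACGTGG also contains on its other strand, was in 28 of the 38 and in 5540 of the 11079 tested genes. A match is a run of letters in this window and no measure of binding.

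Of the 11 cargo receptors 7 fell in Xbp1KO, and all 11 had estimates below 0. Ergic3, a protein that cycles between the ER and the intermediate compartment, had 27.3 and 30.1 CPM in Xbp1KO libraries, against 107 and 94.9 CPM in WT of batch 2. The ranges were far apart, at -1.82 ± 0.25 on the log2 scale (SE, adjusted p = 0.00916). Mcfd2, the calcium-binding partner with which Lman1 carries glycoproteins such as coagulation factors in humans, had 20.6 and 19.9 CPM in Xbp1KO and 62.3 and 53.9 CPM in WT of batch 2. Its log2 fold change was -1.52 ± 0.15 (adjusted p = 0.00317), and the groups did not overlap. In Blimp1KO Mcfd2 had 59.4 and 63.3 CPM, against 72.7 and 72.6 CPM in WT of batch 1, at -0.24 ± 0.14 (adjusted p = 0.529), and the difference between the effects was -1.28 ± 0.20 (adjusted p = 0.0363).

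The p24 proteins Tmed2, Tmed3 and Tmed9, which sit in vesicle membranes and select cargo, also fell. Tmed2 had 64.6 and 54.4 CPM in Xbp1KO, against 144 and 126 CPM in WT of batch 2, at -1.18 ± 0.22 (adjusted p = 0.0251). Tmed3 had 34.4 and 30.2 CPM in Xbp1KO, against 64.1 and 66.0 CPM in WT of batch 2, at -1.01 ± 0.22 (adjusted p = 0.0406). Tmed9 had 53.5 and 48.2 CPM in Xbp1KO, against 93.6 and 94.4 CPM in WT of batch 2, at -0.89 ± 0.18 (adjusted p = 0.0333). In all 3 the Xbp1KO values lay below the WT values. Their relative Tmed10 did not pass, at -0.70 ± 0.19 (adjusted p = 0.0771). Ergic2, a partner of Ergic3, fell by 1.08 ± 0.13 (adjusted p = 0.00658), with 28.2 and 28.5 CPM in Xbp1KO and 62.4 and 57.4 CPM in WT of batch 2. Lman2, a lectin for high-mannose glycans, fell by 0.97 ± 0.20 (adjusted p = 0.0341), with 128 and 117 CPM in Xbp1KO and 248 and 233 CPM in WT of batch 2. Neither of these genes had overlapping groups.

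Lman1, the lectin ERGIC-53 that works with Mcfd2, had 215 and 190 CPM in Xbp1KO, against 323 and 325 CPM in WT of batch 2, at -0.68 ± 0.18 (adjusted p = 0.0680). It had 205 and 190 CPM in Blimp1KO, against 323 and 350 CPM in WT of batch 1, at -0.77 ± 0.18 (adjusted p = 0.115). Both knockouts were below their WT in every library, and neither value passed. Surf4 had 194 and 162 CPM in Xbp1KO, against 312 and 291 CPM in WT of batch 2, at -0.76 ± 0.21 (adjusted p = 0.0737). Ergic1, another protein of the intermediate compartment, had 135 and 179 CPM in Blimp1KO, against 279 and 286 CPM in WT of batch 1, at -0.85 ± 0.21 (adjusted p = 0.133), and it stood at -0.49 ± 0.21 (adjusted p = 0.211) in Xbp1KO. Again the libraries of the groups did not overlap.

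In the COPI coat and ARF cycle 2 of 9 genes fell in Xbp1KO, and neither encodes a coat subunit. Arfgap3, a GTPase activator that ends the ARF cycle on COPI vesicles, had 28.5 and 23.2 CPM in Xbp1KO, against 102 and 82.2 CPM in WT of batch 2. Its groups did not overlap, and it stood at -1.84 ± 0.19 on the log2 scale (SE, adjusted p = 0.00385). Arf4, a GTPase of the early Golgi, had 137 and 117 CPM in Xbp1KO, against 291 and 261 CPM in WT of batch 2, at -1.12 ± 0.19 (adjusted p = 0.0192). Of the 7 coat subunit genes among these 9 none passed, and the lowest p belonged to Arcn1 and Cope. Arcn1, the delta subunit, had 103 and 83.7 CPM in Xbp1KO and 168 and 169 CPM in WT of batch 2, at -0.85 ± 0.22 (adjusted p = 0.0661). In batch 1 it had 149 and 105 CPM in Blimp1KO and 198 and 208 CPM in WT, at -0.68 ± 0.22 (adjusted p = 0.235). Cope, the epsilon subunit, had 68.8 and 67.0 CPM in Xbp1KO and 139 and 117 CPM in WT of batch 2, at -0.91 ± 0.24 (adjusted p = 0.0695), and it stood at -0.45 ± 0.24 (adjusted p = 0.484) in Blimp1KO. The remaining subunit genes Copa, Copb1, Copb2, Copg1 and Copz1 had estimates from -0.52 to -0.12 in Xbp1KO, with adjusted p from 0.145 to 0.803. A coat subunit gene outside the 44 genes, Copz2, did fall. It had 5.65 and 5.54 CPM in Xbp1KO, against 11.1 and 13.6 CPM in WT of batch 2, at -1.14 ± 0.26 (adjusted p = 0.0444). Copg2, also outside the 44 genes, stood at 0.32 ± 0.15 (adjusted p = 0.257) in Xbp1KO.

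The KDEL receptors bind chaperones that have left the ER and return them in COPI vesicles, and 1 of 3 fell in Xbp1KO. Kdelr3 (Entrez 105785, at 79516408 to 79527739 on chromosome 15), whose promoter is printed above, had 2.68 and 3.03 CPM in Xbp1KO libraries, against 11.3 and 11.1 CPM in WT of batch 2. The groups were well apart, at -1.97 ± 0.19 (SE, adjusted p = 0.00317). In Blimp1KO it had 9.25 and 12.3 CPM, against 13.5 and 14.3 CPM in WT of batch 1, at -0.36 ± 0.18 (adjusted p = 0.451), and the difference between the effects was -1.61 ± 0.26 (adjusted p = 0.0381). Kdelr1 had 136 and 119 CPM in Xbp1KO, against 125 and 110 CPM in WT of batch 2, which overlap, at 0.11 ± 0.20 (adjusted p = 0.785). In batch 1 it had 105 and 141 CPM in Blimp1KO and 181 and 174 CPM in WT, at -0.53 ± 0.20 (adjusted p = 0.306). Kdelr2 had 61.4 and 53.5 CPM in Xbp1KO, against 84.0 and 80.2 CPM in WT of batch 2, at -0.52 ± 0.20 (adjusted p = 0.186), and its estimate in Blimp1KO was -0.30 ± 0.20 (adjusted p = 0.614).

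Among tethers, SNAREs and Golgi entry factors 5 of 8 genes fell in Xbp1KO. Bet1, a SNARE of ER to Golgi fusion, had 15.8 and 13.5 CPM in Xbp1KO, against 53.6 and 49.4 CPM in WT of batch 2, at -1.81 ± 0.16 (SE, adjusted p = 0.00258). In Blimp1KO it had 40.9 and 48.5 CPM, against 60.4 and 61.4 CPM in WT of batch 1, at -0.45 ± 0.16 (adjusted p = 0.266), and the difference between the effects was -1.36 ± 0.22 (adjusted p = 0.0384). Both knockouts lay below their WT without overlap. The SNAREs with which Bet1 pairs, Stx5a and Sec22b, fell too. Stx5a, the syntaxin, had 54.2 and 49.1 CPM in Xbp1KO, against 92.8 and 87.9 CPM in WT of batch 2, at -0.81 ± 0.16 (adjusted p = 0.0302). Sec22b had 37.9 and 33.9 CPM in Xbp1KO, against 57.8 and 56.3 CPM in WT of batch 2, at -0.67 ± 0.15 (adjusted p = 0.0473). Both genes had knockout values below every WT value of the batch.

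Yif1a, a membrane protein of the early Golgi, had 11.1 and 10.5 CPM in Xbp1KO, against 36.0 and 31.7 CPM in WT of batch 2, at -1.65 ± 0.26 (SE, adjusted p = 0.0138). Uso1, the tether p115 that catches incoming vesicles, had 127 and 88.9 CPM in Xbp1KO, against 281 and 247 CPM in WT of batch 2, at -1.29 ± 0.30 (adjusted p = 0.0459). Neither gene had overlapping groups. The Golgi tether giantin, encoded by Golgb1, had 84.4 and 68.8 CPM in Xbp1KO, against 158 and 139 CPM in WT of batch 2, and its estimate of -0.95 ± 0.61 had the widest SE of the 44 genes (adjusted p = 0.409). Golt1b, a small Golgi membrane protein, stood at -0.21 ± 0.16 (adjusted p = 0.495) in Xbp1KO and -0.15 ± 0.16 (adjusted p = 0.782) in Blimp1KO. Trappc1, a subunit of the TRAPP tether, had 11.5 and 18.6 CPM in Blimp1KO, against 12.4 and 11.9 CPM in WT of batch 1, which overlap, at 0.31 ± 0.25 (adjusted p = 0.687), and its estimate in Xbp1KO was 0.11 ± 0.25 (adjusted p = 0.844).

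**Figure D2:**
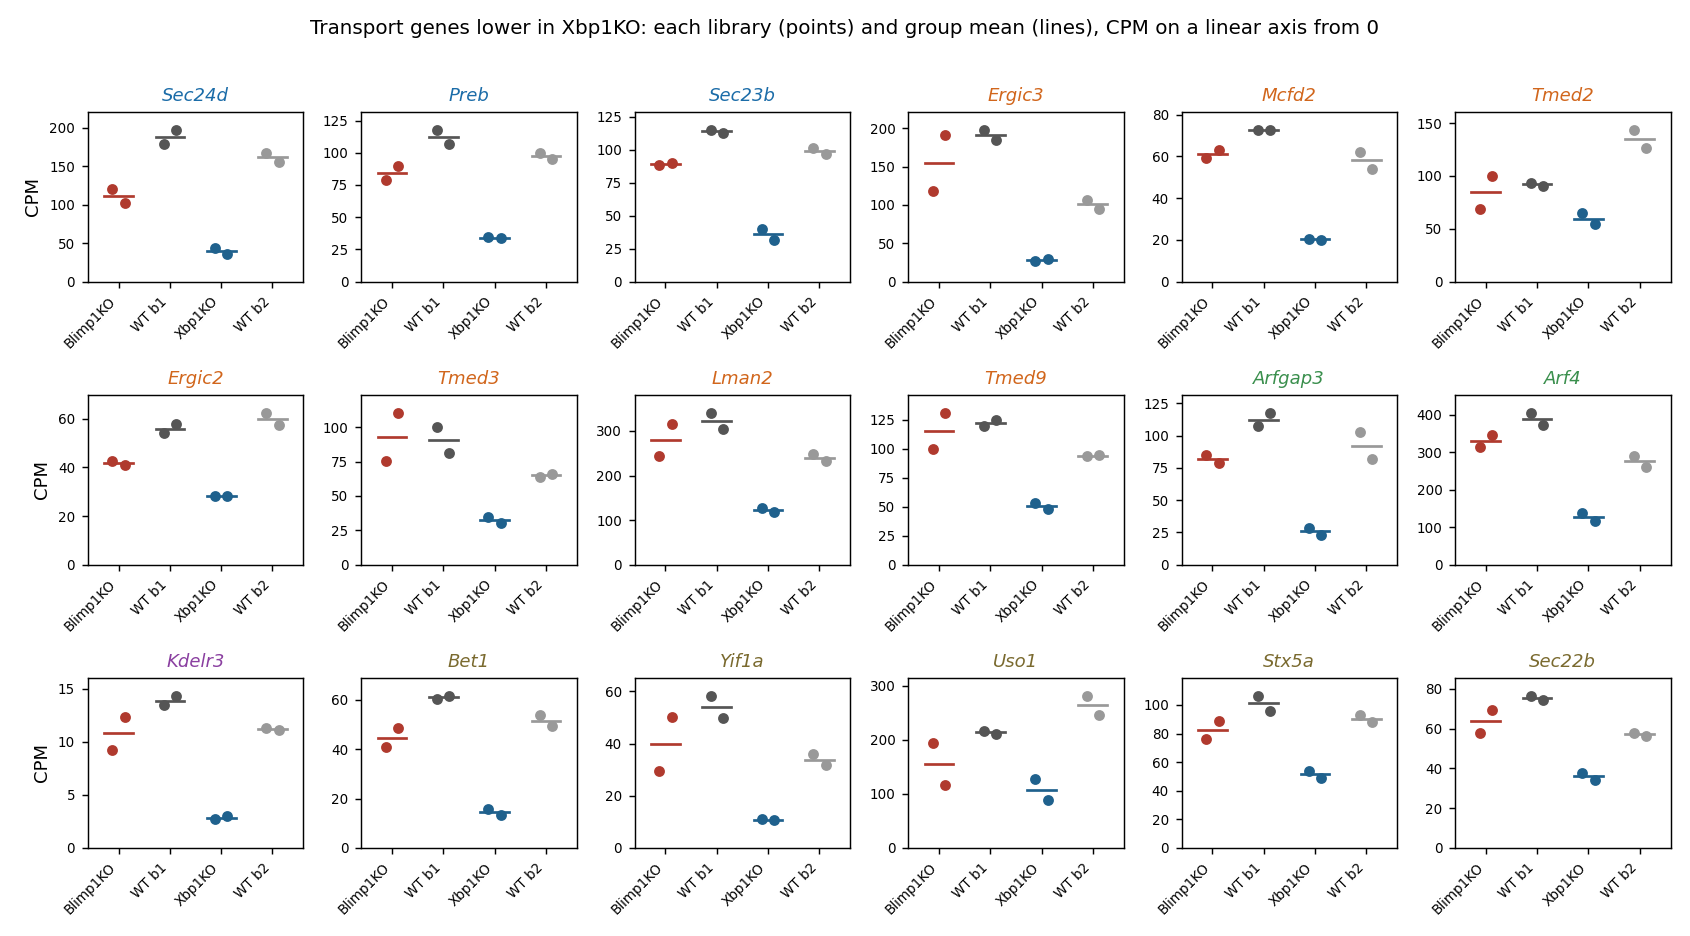
CPM (y axes, TMM-scaled, linear from 0) of the 18 genes that fell in Xbp1KO, in each library (points) with group means (lines); b1 and b2 are batches 1 and 2, and title colours give the role class as in the plot of fold changes. Each gene has both Xbp1KO libraries below both WT libraries of batch 2, as for Bet1 at 15.8 and 13.5 against 53.6 and 49.4 CPM, on a scale whose directions flip for some genes with total counts. The genes were chosen as called lower in these same libraries, so the separation is no further evidence.

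In Blimp1KO the lowest estimate of the 44 genes was that of Sec24a, at 53.8 and 36.2 CPM in Blimp1KO, against 82.7 and 91.7 CPM in WT of batch 1, or -0.95 ± 0.24 (SE, adjusted p = 0.136 by edgeR). Sec24d had 120 and 103 CPM in Blimp1KO, against 179 and 197 CPM in WT of batch 1, at -0.76 ± 0.18 (adjusted p = 0.128). Sec23a had 29.4 and 21.4 CPM in Blimp1KO, against 38.8 and 38.9 CPM in WT of batch 1, at -0.61 ± 0.18 (adjusted p = 0.187). None of these 3 COPII genes passed. Their groups did not overlap, but the share of all genes without overlap was not counted. The 18 genes that fell in Xbp1KO had estimates in Blimp1KO from -0.76 for Sec24d to 0.03 for Tmed3. Without Blimp1KO replicate 1, which leaves 1 library in that group, the estimates were -1.22 for Sec24a and -0.81 for Sec23a. The library kept, replicate 2, held the lower value of both genes, and replicate 1, at 53.8 and 29.4 CPM, lay nearer to WT. The log2 ratio of replicate 2 to replicate 1 was -0.57 for Sec24a, of 6798 bases, and -0.45 for Sec23a, of 4108 bases.

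Shares within a family do not depend on how a library is scaled, and they were computed from counts per base of gene length. Sec24d made up 16.4% ± 0.0643 of Sec24 family counts per base in Xbp1KO and 41.0% ± 1.42 in WT of batch 2 (SD, n = 2 each). Its share in Blimp1KO was 39.3% ± 0.139, against 47.4% ± 1.53 in WT of batch 1. Sec24c was the largest part in Xbp1KO, with 45.2% ± 0.150, against 34.4% ± 1.40 in WT of batch 2. Sec23b made up 54.5% ± 3.05 of the Sec23 pair in Xbp1KO, against 76.2% ± 1.76 in WT of batch 2, and 83.2% ± 3.35 in Blimp1KO, against 80.5% ± 0.230 in WT of batch 1. Sar1a made up 70.3% ± 1.29 of the Sar1 pair in Xbp1KO and 77.1% ± 0.536 in WT of batch 2. Kdelr3 made up 1.75% ± 0.307 of the KDEL receptors in Xbp1KO and 6.11% ± 0.321 in WT of batch 2, and its share in Blimp1KO, 5.74% ± 0.134, stood beside 5.40% ± 0.258 in WT of batch 1. Each of these Xbp1KO shares lay outside the WT range of its batch, with an exact 2-sided permutation p of 0.333, the smallest that 2 libraries against 2 allow. How reads shared by paralogs were counted is not given in the sources used here.

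**Figure D3:**
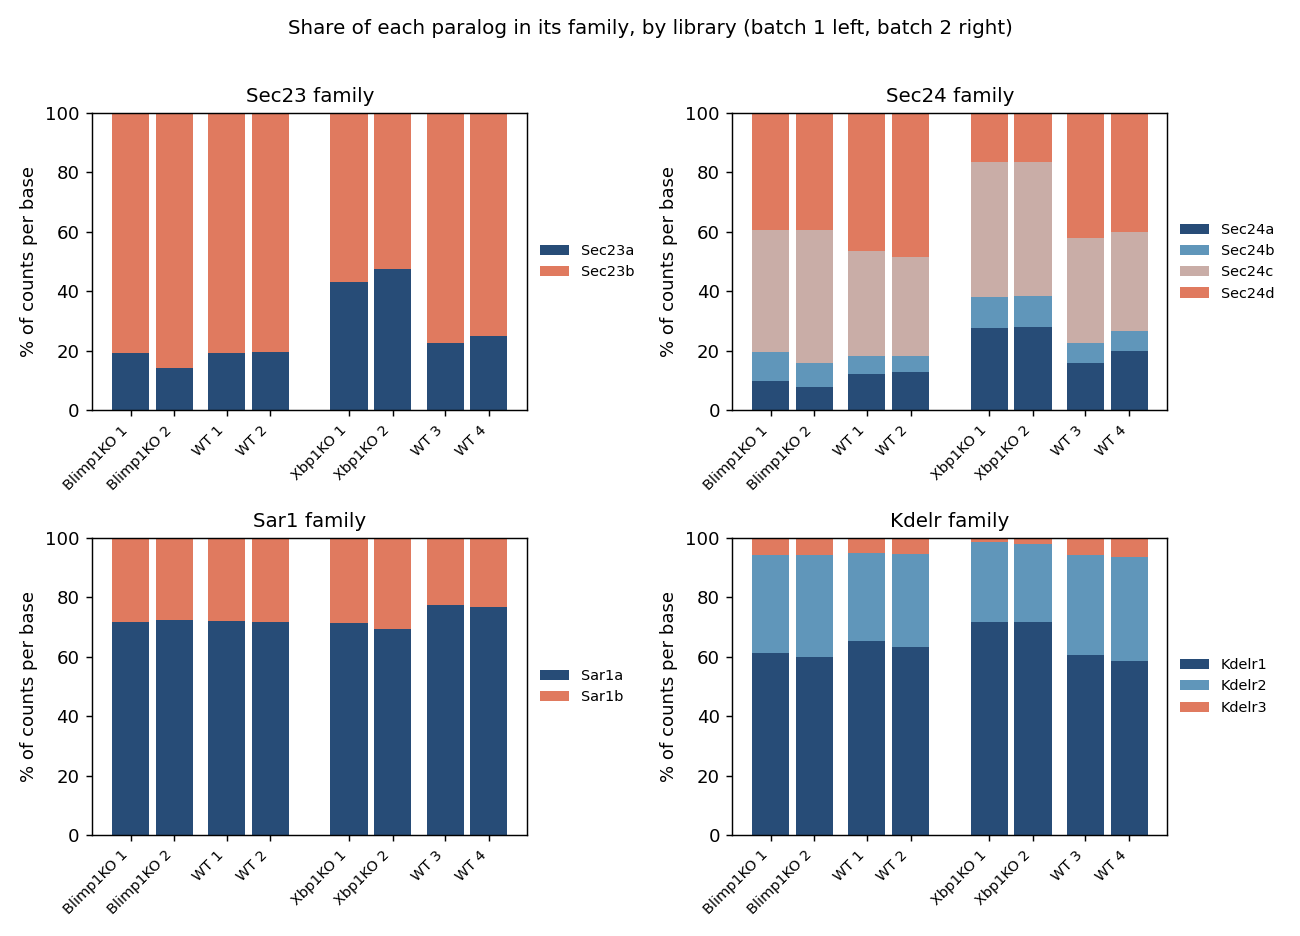
Share of each paralog in its family (y axes, percent of counts per base of gene length) in each library, for the Sec23, Sec24, Sar1 and KDEL receptor families. The Sec24d share is 16.4% and 16.3% in the Xbp1KO libraries, against 42.0% and 40.0% in WT of batch 2.

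Other genes of the same route were taken from a list of 81, of which 77 were tested. In Xbp1KO 11 of these fell and 2 rose, and the median was -0.15, against 0.08 over all genes. In Blimp1KO 0 passed, with a median of -0.19, and 13 genes, 16.9%, were at an unadjusted p below 0.05, against 13.9% of all genes. Of the 48 other tethers, SNAREs and Rab genes, 10 fell. The smallest p was that of the Golgi stacking gene Gorasp1, with 6.1 and 7.0 CPM in Xbp1KO, against 13.3 and 15.8 CPM in WT of batch 2, at -1.15 ± 0.15 (SE, adjusted p = 0.00817). The next, Nbas, a subunit of the tether that receives COPI vesicles at the ER, had 37.9 and 29.4 CPM in Xbp1KO, against 118 and 96.4 CPM in WT of batch 2, at -1.67 ± 0.26 (adjusted p = 0.0137). Both genes had lower values in each Xbp1KO library than in each WT library. Yipf2, of the Golgi protein family to which Yif1a's partners belong, stood at -1.13 ± 0.18 (adjusted p = 0.0146) and Cog7, of the tether for transport within the Golgi, at -0.83 ± 0.14 (adjusted p = 0.0183). The 2 that rose were the ER membrane proteins Bcap29 and Bcap31, which accompany membrane proteins out of the ER. Bcap29 had 19.4 and 19.0 CPM in Xbp1KO, against 10.1 and 11.6 CPM in WT of batch 2, at 0.82 ± 0.15 (adjusted p = 0.0228). Bcap31 had 110 and 97.7 CPM in Xbp1KO, against 55.9 and 49.1 CPM in WT of batch 2, at 0.98 ± 0.20 (adjusted p = 0.0326). Of the 10 other COPII genes 8 were tested, and none of these passed in either knockout.

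Marker lists of other cells stood high in single libraries of batch 2, and myeloid markers were present in every library of batch 1. The summed level of 10 neutrophil and monocyte markers was 44.1 and 1178 CPM in Xbp1KO and 12.7 and 502 CPM in WT of batch 2, and that of 8 erythroid and megakaryocyte markers was 6.44 and 665 CPM in Xbp1KO and 20.4 and 203 CPM in WT of batch 2. No marker of these lists was at 0 in any of the 4 libraries. In batch 2 the high sums were those of Xbp1KO replicate 2 and WT replicate 4. Itgam and Cr2, named after their values were seen, were higher in both Xbp1KO libraries, while other members of their lists were not. Itgam, an integrin of myeloid cells, had 41.7 and 40.8 CPM in Xbp1KO, against 7.66 and 14.8 CPM in WT of batch 2 (adjusted p = 0.0187 by edgeR), the 1 of 10 neutrophil and monocyte markers called. Cr2, a complement receptor of mature B cells, had 5.68 and 5.55 CPM in Xbp1KO, against 1.48 and 0.98 CPM in WT of batch 2 (adjusted p = 0.0273), the 1 of 8 mature B cell markers called. Lyz2, of the myeloid list, had 0.625 and 241 CPM in Xbp1KO, against 2.21 and 82.8 CPM in WT of batch 2. Cd22, of the B cell list, had 1.92 and 9.55 CPM in Xbp1KO, against 10.1 and 7.62 CPM. In batch 1 Itgam had 58.7 and 44.6 CPM in Blimp1KO, against 12.3 and 15.5 CPM in WT. The part of such cells in the lower levels of transport genes was not tested. With both libraries left out, an alternative chosen after seeing these levels, 0 of the 44 genes passed in 1 library against 1, with 15 at an unadjusted p below 0.05, 59 calls among all genes, a median of -0.70 and 38 estimates below 0. All 18 genes that fell kept the sign of their estimate in that fit. In batch 1, 8 markers of mature B cells summed to 504 and 542 CPM in Blimp1KO and 147 and 127 CPM in WT, and the part of these cells in the lower estimates of Blimp1KO was not tested.

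The replicates of Blimp1KO differed with gene length. Over the 44 genes, the log2 ratio of replicate 2 to replicate 1 had a Pearson correlation of -0.81 with log2 gene length, against -0.06 in WT of batch 1, -0.54 in Xbp1KO and -0.04 in WT of batch 2 (replicate 4 to 3). Over all genes tested these correlations were -0.46 in Blimp1KO, -0.01 in WT of batch 1, 0.03 in Xbp1KO and 0.04 in WT of batch 2. The points of each correlation are genes of the same 2 libraries, so it is a description. Of the 5 genes of 5000 bases or more, the median log2 ratio was -0.88 in Blimp1KO, and that of the 39 shorter genes was 0.23. Golgb1, the longest, had 96.8 and 20.8 CPM in Blimp1KO, against 66.4 and 46.5 CPM in WT of batch 1. Its knockout values lie on both sides of the WT values, and its estimate of 0.06 ± 0.61 (SE, adjusted p = 0.992 by edgeR) averages them. The log2 fold changes had weaker correlations with length over the 44 genes, at -0.18 in Blimp1KO and 0.08 in Xbp1KO.

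**Figure D4:**
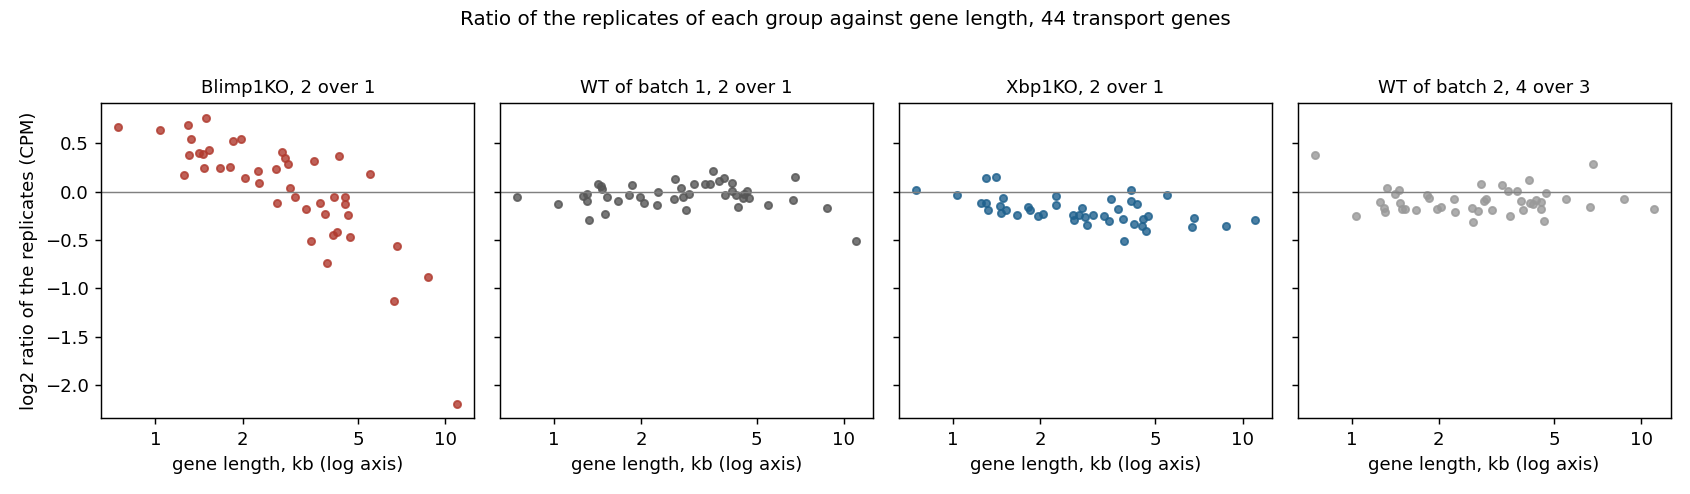
Log2 ratio of the replicates of each group (y axis, TMM-scaled CPM) against gene length (x axis, log scale, kilobases) for the 44 genes, 1 panel per group. The points fall with length in Blimp1KO, where the correlation is -0.81, and stay near 0 in WT of batch 1, where it is -0.06.

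Single libraries decided how many genes passed. In Xbp1KO the count of 18 dropped to 6 when WT replicate 3 was left out, to 9 for WT replicate 4 and to 7 for Xbp1KO replicate 1 as for Xbp1KO replicate 2. It was 10 when either WT library of batch 1 was left out and 27 without Blimp1KO replicate 2, libraries that enter this comparison by the pooled spread, the scaling and the filter alone. Sec24d, Preb, Mcfd2, Arfgap3, Kdelr3 and Bet1 passed with any 1 of the 8 libraries left out, and all 18 genes kept a negative estimate in these 8 fits. The 3 calls in the difference between effects were lost with any WT or Xbp1KO library left out.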

How the data were processed

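RNA was measured in 8 libraries. The authors deposited 1 table of raw read counts per Entrez gene, per the file headers, and per-sample files of log2 FPKM for 13945 genes. FPKM are counts per length and library size, and the filter and scaling of these files are not given in the sources used here. Jchain has the same value, 29360.9 FPKM, in all 8 of them, so they hold more than counts divided by length and library size. Subread, featureCounts and limma are named in the submitters' processing notes without steps, with the builds GRCm38 and mm10. The strand setting is not given.

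Counts were fitted in R 4.3.3 with edgeR 4.0.16: filterByExpr at a minimum count of 10, TMM library sizes, 4 group means over all 8 libraries with 4 residual degrees of freedom, the quasi-likelihood test and Benjamini-Hochberg adjustment over 15073 genes, called below 0.05. The SE is the size of the log2 fold change over the root of its F value. Alternatives used DESeq2 1.42.0, limma 3.58.1 and other scalings, filters and libraries. The fit and the motif search were tested on simulated data. Promoters and positions come from RefSeq tables of GRCm38.p6. Protein sequences were not used here.

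The genes and lists were chosen with earlier results of these data known. Single fold changes are given for genes called in either knockout or the difference, and for up to 2 others per role class and knockout with the smallest p. Of the other pathway genes, up to 4 per direction are given, and Copz2 and Copg2 beside the COPI genes.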

Additional observations from a re-analysis of the deposited data

Results flagged for a closer look

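For 3 of the 44 genes the effects of the knockouts differed by the test of the difference itself (the quasi-likelihood test of edgeR, Benjamini-Hochberg adjusted, 2 libraries per group). Mcfd2 had a log2 fold change of -1.52 in Xbp1KO and -0.24 in Blimp1KO, a difference of -1.28. Kdelr3 stood at -1.97 in Xbp1KO and -0.36 in Blimp1KO, a difference of -1.61. Bet1 stood at -1.81 in Xbp1KO and -0.45 in Blimp1KO, a difference of -1.36. The knockouts were in different batches, each with its own WT libraries, and both knockout libraries of each gene lay below both WT libraries of the batch. These differences also passed when either Blimp1KO library was left out, and did not pass with any of the other 6 libraries left out.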

How the results depend on the processing

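The medians and counts below are those of the 44 genes, and calls over all genes changed with the setting too. For the difference of effects 9.06% of all genes passed by DESeq2 and 10.3% with WT pooled, against 1.68% by edgeR with TMM. The share was 3.22% without a filter, 2.21% by limma on log2 FPKM, 2.08% without immunoglobulin genes in the library sizes and 1.55% with total counts. In Blimp1KO it was 2.18% without a filter, and it rose when either Blimp1KO library was left out. In Xbp1KO the share of all genes fell and rose with the count for the 44 genes when a library was left out. In Blimp1KO 4 genes passed by DESeq2, 1 without a filter and 16 with total counts, and 0 to 2 with a library left out. The median there was -0.31 by DESeq2, -0.30 with library sizes without immunoglobulin genes, 0.47 with total counts, -0.35 by limma-voom, -0.28 from batch 1 alone, -0.22 with WT pooled, -0.28 without WT replicate 4 and Xbp1KO replicate 2, and -0.39 to -0.20 with a library left out. In Xbp1KO 6 to 27 genes passed with a library left out and 0 without WT replicate 4 and Xbp1KO replicate 2, and the median was 0.43 with total counts, -0.89 with WT pooled and -0.92 to -0.63 with a library left out. For the difference of effects 14 genes passed by DESeq2, 6 without immunoglobulin genes in the library sizes, 0 with total counts, 7 without a filter, 8 by limma on the deposited log2 FPKM, 15 with WT pooled, 0 without WT replicate 4 and Xbp1KO replicate 2, and 0 to 7 with a library left out. Total counts shift all genes, by a median of 0.78 in Blimp1KO and 1.24 in Xbp1KO, and a left-out library leaves 1 sample in a group, assumed to vary like the others. The cause of the other changes was not tested. With a replicate block in batch 1 the Blimp1KO median was -0.35, and 0, 15 and 1 genes passed in Blimp1KO, Xbp1KO and the difference. The labels do not say that the numbers pair libraries, and the deviations of Blimp1KO and WT replicate 1 correlated at 0.211 across genes.

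Estimates near 0 changed sign. In Blimp1KO Golgb1 stood at -0.31 by limma-voom, -0.29 by limma on log2 FPKM, -0.80 with WT pooled and -0.31 with the block, and Tmed3 at -0.0367 by limma on log2 FPKM. With WT pooled, Tmed9 stood at 0.0910 and Ergic3 at 0.0787 in Blimp1KO, and Sec23a at 0.0186, Sec24a at 0.19, Kdelr1 at -0.21 and Trappc1 at -0.25 in Xbp1KO. With WT replicate 4 and Xbp1KO replicate 2 left out together, Sec23a stood at 0.0436 and Sec24a at 0.24 in Xbp1KO. With 1 library left out, values in Blimp1KO ran from -1.39 to 0.78 for Golgb1, -0.84 to 0.25 for Mia3, -0.69 to 0.0422 for Ergic3, -0.42 to 0.18 for Tmed2, -0.39 to 0.0231 for Lman2, -0.33 to 0.0629 for Golt1b, -0.29 to 0.15 for Tmed9, -0.26 to 0.33 for Tmed3, -0.10 to 0.26 for Tmed10 and -0.0746 to 0.67 for Trappc1. In Xbp1KO they ran from -0.26 to 0.12 for Sec24a, -0.19 to 0.0147 for Sec23a, -0.0611 to 0.23 for Kdelr1 and -0.0862 to 0.31 for Trappc1.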
